A study of Ziziphus jujuba with 15 samples.

Results

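The 7 ethylene-responsive transcription factor genes of the AP2/ERF family described here, of the 32876 genes in the expression table, were followed through heat stress in leaves of jujube (Ziziphus jujuba). They were taken by their gene identifiers, and are the genes that the supplementary list of transcription factors of the study gives under ERF for ‘HS’ after 1 d. That list was drawn from the same libraries at 0 to 5 d, so the direction of these genes at 1, 3 and 5 d is not independent evidence. The libraries at 7 d were not part of it, but they are compared with the same 0 d libraries.

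The samples were leaves of the seedlings of ‘HS’ (HS-Haoqing1), a heat-sensitive cultivar, under heat stress for 0, 1, 3, 5 and 7 d, with 3 libraries (replicates a, b and c) at each time point, 15 in all. Heat stress was 45 °C from 8:00 to 22:00, and 0 d was the control grown at 30 °C in the day and 20 °C at night. There were no unheated leaves at 1, 3, 5 or 7 d. Time in heat therefore cannot be told apart from plant age or other changes over these days. All plants were rooted cuttings of 1 cultivar, and the labels speak of pooled RNA where the methods speak of biological replicates of 15 plants. The p-values therefore measure the spread between these libraries, which may be partly technical.

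The AP2/ERF domain is a plant DNA-binding domain. The name of the ERF branch comes from factors found in the response to ethylene, a gas hormone of ripening and stress that plants make from ACC and sense with receptors in the endoplasmic reticulum, while the DREB branch is best known from drought, cold and heat. Some members activate their targets and others, with a short EAR motif, repress them, so the family works in both directions.

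Values are FPKM, mapped fragments scaled to gene length and to library size, so levels of different genes can be set side by side per length. Differences are given on the scale of log2(FPKM + 1). A gene was taken as risen or fallen where the p from limma, adjusted by Benjamini-Hochberg over all 19925 genes tested, was no higher than 0.01 and the level differed at least 2-fold. Of the 7 genes 6 reached 1 FPKM in 3 or more libraries and were tested, and 1 stayed below that level in every library.

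For the label of leaf, 12 genes of light-harvesting antenna proteins were read. They came from a supplementary table of differentially expressed genes, so that they are expressed was known and does not test the label. None of them was at 0 in any library. Their summed level was 9393 to 17225 FPKM at 0 d, 25918 to 26377 at 1 d, 12132 to 17739 at 3 d, 11897 to 16178 at 5 d and 23334 to 29205 at 7 d. The sum follows the most abundant of these genes, and they did not all move together. In the 12 heated libraries gene9294 was above all of 0 d and gene28101 below all of 0 d. For the label of heat, the HSP83 gene gene21597, a chaperone of the HSP90 family, was read. It was at 31.0 to 271 FPKM in the 12 heated libraries and at 0.349 to 0.621 FPKM at 0 d. The study had reported most HSP genes, HSP90s among them, as raised by heat. The rise of HSP83 was therefore known and does not test the treatment. The smallest steps in FPKM gave the relative depth of the libraries, 0.901 to 1.31 times that of replicate a at 0 d.

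Replicate a at 7 d stood apart. It correlated at 0.909 and 0.906 with replicates b and c at 7 d, while these correlated at 0.966 with each other, and its highest correlation, 0.934, was with replicate a at 5 d. HSP83 was at 271 FPKM in it, and at 34.0 and 31.0 FPKM in replicates b and c of the same day. Tests at 7 d are therefore given with and without it. At the other time points the correlation of b with c (0.966 to 0.969) was above that of either with replicate a (0.927 to 0.946), and the meaning of the letters is not stated.

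Heated leaves held more mRNA of the RAP2-4 pair and less of gene16374 and gene2565. After 1 d, gene28694 and gene31593 had risen and gene16374 and gene2565 had fallen, 2 of 6 genes tested in each direction. The same 4 genes passed at 3 d and 5 d. Over all genes tested, 4.49% rose and 5.68% fell at 1 d, 7.53% rose and 6.39% fell at 3 d, and 9.28% rose and 8.79% fell at 5 d. At 7 d, 1 of 6 (gene31593) had risen and 2 of 6 (gene16374 and gene2565) had fallen, against 4.14% and 4.88% of all genes tested. As the genes had been chosen on the earlier days, these shares describe them and test nothing. In bulk leaf RNA, fewer cells of a type and less RNA per cell cannot be told apart.

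**Figure D1:**
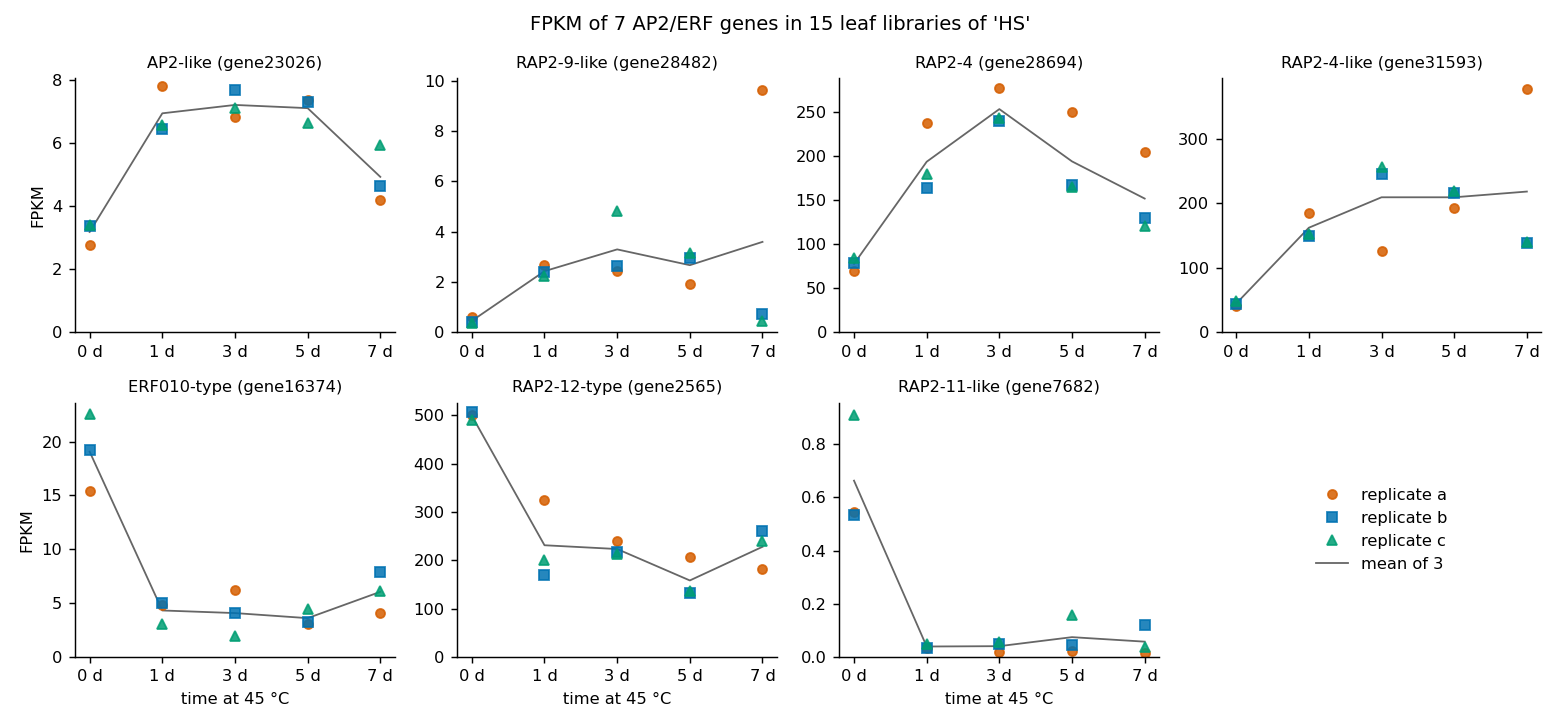
FPKM (vertical axis, linear from 0, own scale in each panel) of the 7 AP2/ERF genes against the time at 45 °C, with 1 point per library and a line through the means of 3 replicates. The top row holds the 4 genes with higher means in heat and the bottom row the 3 with lower means, and replicate a at 7 d reaches 9.63 FPKM for the RAP2-9-like gene and 377 FPKM for the RAP2-4-like gene.

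gene28694 (LOC107405213) is annotated as RAP2-4. In Arabidopsis RAP2.4 is a DREB-type factor that takes part in responses to light, ethylene and drought. In the order of replicates a, b and c, it was at 70.0, 79.1 and 84.2 FPKM at 0 d, 238, 164 and 179.9 after 1 d, 278, 239.9 and 243 after 3 d, 250.1, 168 and 165 after 5 d, and 205, 130.4 and 121 after 7 d. All 12 heated libraries lay above the 3 at 0 d, the 3 d libraries were above all others but replicate a at 5 d, and replicate a was the highest on every heated day. Means were 194 ± 39.4, 254 ± 21.3, 194 ± 48.3 and 152 ± 46.1 FPKM at 1, 3, 5 and 7 d, against 77.8 ± 7.20 FPKM at 0 d (SD, n = 3 each).

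The differences of gene28694 from 0 d were 1.29 at 1 d, 1.69 at 3 d and 1.29 at 5 d on the log2 scale, each with an SE of 0.21 (limma, Benjamini-Hochberg adjusted p of 0.000668, 7.3e-05 and 0.000382). At 7 d the difference was 0.92, which is under a fold change of 2, with an adjusted p of 0.00586. It was 0.69 when replicate a at 7 d was left out (limma adjusted p = 0.0193), and 1.07, past both thresholds, when replicate c at 7 d was left out (adjusted p = 0.00609). Quantile normalization with all libraries also brought gene28694 past both thresholds at 7 d, at 1.01 (adjusted p = 0.00243).

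gene31593 (LOC107408332), is annotated as RAP2-4-like in the supplementary tables. RefSeq lists it as a pseudogene and the other 6 members as protein-coding, so whether its mRNA gives a working factor is uncertain. It was at 40.6, 43.6 and 48.7 FPKM at 0 d, 185, 149 and 152 after 1 d, 126, 245 and 256 after 3 d, 193, 215 and 219 after 5 d, and 377, 138 and 139.7 after 7 d. No heated library overlapped with 0 d. Replicate a was the lowest library at 3 d and 5 d and the highest at 1 d and 7 d.

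gene31593 was higher than at 0 d by 1.84, 2.15, 2.22 and 2.11 log2 units after 1, 3, 5 and 7 d, with an SE of 0.34 (limma adjusted p of 0.00144, 0.000366, 0.000228 and 0.000681). Its mean was 162 ± 20.1, 209 ± 72.5, 209 ± 14.1 and 218 ± 137 FPKM at 1, 3, 5 and 7 d, 3.66, 4.72, 4.72 and 4.92 times the mean of 44.3 ± 4.11 FPKM at 0 d (SD, n = 3 each). Without replicate a at 7 d the ratio of means was 3.13, and the log2 difference was 1.63 with an adjusted p of 0.000637, which still passed. It was the only member past both thresholds in the upward direction at 7 d in either fit, where without that library 4.88% of all genes rose and 4.04% fell.

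The pair differed in how its levels stood to each other. The ratio of gene31593 to gene28694 was 0.580, 0.551 and 0.578 at 0 d, 0.776, 0.909 and 0.846 after 1 d, 0.452, 1.02 and 1.05 after 3 d, 0.771, 1.28 and 1.33 after 5 d, and 1.84, 1.06 and 1.16 after 7 d. gene31593 was thus below gene28694 in every library at 0 d and 1 d and above it in all 3 at 7 d, while replicate a at 3 d lay below the 0 d ratios. How the reads of stretches shared by related genes were divided by the authors' assembly is not stated, so the split between the pair is uncertain, and its part in the ratio was not tested.

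**Figure D2:**
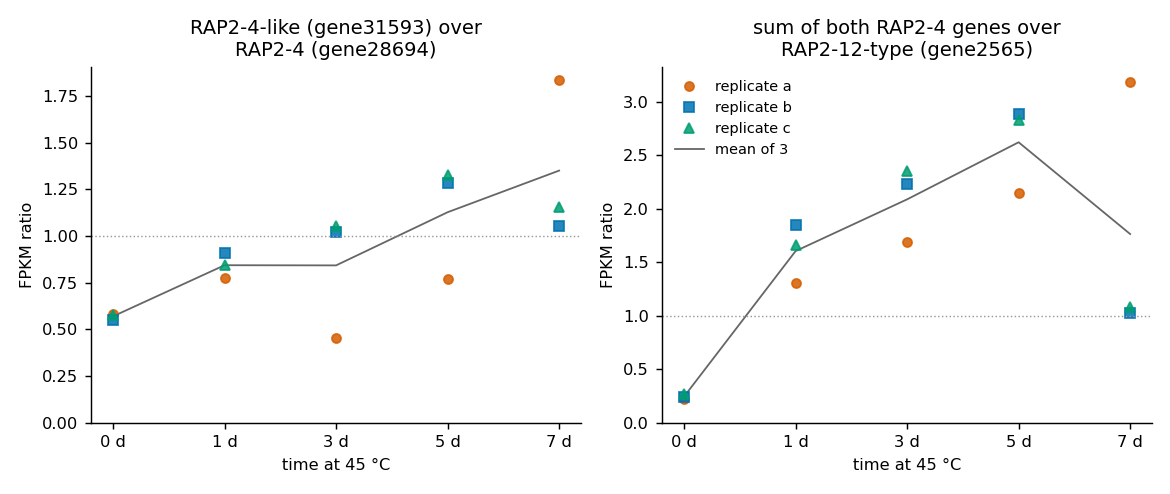
Ratios of FPKM (vertical axes, linear from 0) against the time at 45 °C, with 1 point per library and a line through the means of 3 replicates. Left, RAP2-4-like over RAP2-4, at 0.551 to 0.580 at 0 d and 1.06 to 1.84 at 7 d; right, both RAP2-4 genes summed over the RAP2-12-type gene, at 0.221 to 0.271 at 0 d and above 1 in every heated library.

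gene28482 (LOC107404986) is annotated as RAP2-9-like, with ERF018 as its match in Swiss-Prot. ERF018 of Arabidopsis, also called ORA47, takes part in the control of jasmonate and abscisic acid synthesis. It was low throughout, at 0.597, 0.399 and 0.350 FPKM at 0 d, 2.65, 2.40 and 2.22 after 1 d, 2.43, 2.61 and 4.83 after 3 d, 1.91, 2.94 and 3.14 after 5 d, and 9.63, 0.707 and 0.438 after 7 d. The 9 libraries at 1, 3 and 5 d lay above all 3 at 0 d, whereas at 7 d replicate a was the highest of all 15 and replicate c lay within the range of 0 d.

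With all 15 libraries gene28482 did not pass, with log2 differences of 1.24, 1.53, 1.33 and 1.04 at 1, 3, 5 and 7 d, an SE of 0.56 and limma adjusted p of 0.106, 0.0441, 0.0689 and 0.176. Replicate a at 7 d decided this. Without it the differences at 1, 3 and 5 d were the same and their limma adjusted p were 0.000895, 0.000171 and 0.000344, past both thresholds, while the difference at 7 d was 0.12 (adjusted p = 0.744). gene28482 reached 1 FPKM only in heated libraries, through which it entered the test, so these p-values are no independent support. Its mean FPKM was 5.40, 7.33 and 5.94 times that of 0 d at 1, 3 and 5 d, and in replicates b and c at 7 d it was 1.28 times.

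In the RefSeq annotation of the jujube cultivar Dongzao, gene28482 lies next to another gene of the family, gene28483 (LOC107404975, ERF017), with no gene between them. It was singled out for its place after its values were seen. gene28483 was at 0, 0.0440 and 0 FPKM at 0 d, 2.11, 0.226 and 0.426 after 1 d, 2.07, 0.894 and 1.02 after 3 d, 0.109, 0.368 and 0.229 after 5 d, and 0.608, 0.583 and 0.497 after 7 d. All heated libraries lay above those of 0 d, and the 3 d difference was 1.16 (limma adjusted p = 0.00724). It reached 1 FPKM in 3 libraries, all heated, so it was tested only because it was high in heat and this p is no independent support. At 7 d replicate a of gene28483 was close to replicates b and c, unlike gene28482.

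gene23026 (LOC107431731) is an AP2-like gene matched to At2g41710 of Arabidopsis. It was at 2.75, 3.36 and 3.40 FPKM at 0 d, 7.78, 6.43 and 6.57 after 1 d, 6.82, 7.67 and 7.09 after 3 d, 7.37, 7.28 and 6.64 after 5 d, and 4.20, 4.63 and 5.92 after 7 d. The levels at 1, 3 and 5 d overlapped with each other and lay above every library at 7 d, which in turn lay above every library at 0 d.

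Its differences from 0 d were 0.93, 0.98 and 0.96 at 1, 3 and 5 d, with an SE of 0.14 (limma adjusted p of 0.000307, 0.000148 and 0.000125), and 0.50 at 7 d (adjusted p = 0.0145), or 0.59 without replicate a at 7 d (adjusted p = 0.00884). gene23026 thus missed the fold change and not the p threshold at 1 to 5 d. The mean FPKM without a pseudocount was 2.18, 2.27 and 2.24 times that of 0 d, and with a pseudocount of 0.1 the differences of gene23026 were 1.10, 1.16 and 1.14, past both thresholds (limma adjusted p of 0.000264, 0.000129 and 0.000108). Leaving out replicate b or c at 0 d or replicate a at 3 d brought the 3 d difference to 1.01 to 1.02, and leaving out replicate c at 5 d brought the 5 d difference to 1.00, each past both thresholds.

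gene2565 (LOC107435298) is an ERF with RAP2-12 as its Swiss-Prot match. RAP2.12 of Arabidopsis belongs to the group of ERFs that respond to low oxygen, is degraded when oxygen is present and turns on genes of fermentation when it is short. gene2565 was the most abundant member at 0 d, at 500.2, 507 and 491 FPKM. It was at 325, 169 and 199.9 FPKM after 1 d, 239.6, 218 and 212 after 3 d, 206, 133 and 135 after 5 d, and 183, 261 and 240.2 after 7 d. All 12 heated libraries lay below the 3 at 0 d, and replicates b and c at 5 d were the lowest.

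gene2565 fell by 1.17, 1.16, 1.68 and 1.14 log2 units after 1, 3, 5 and 7 d, with an SE of 0.23 (limma adjusted p of 0.00197, 0.0015, 8.73e-05 and 0.00238). Its mean was 231 ± 82.6, 223 ± 14.4, 158 ± 41.6 and 228 ± 40.4 FPKM at 1, 3, 5 and 7 d, against 499 ± 8.05 FPKM at 0 d (SD, n = 3 each). Without replicate a at 7 d the 7 d difference was -0.99 with an adjusted p of 0.00987, just short of a fold change of 2. Without replicate b at 1 d the difference at 1 d was -0.97 (limma adjusted p = 0.0104), and without replicate c at 1 d it was -1.09 (adjusted p = 0.0104). Leaving out replicate b at 0 d gave gene2565 -1.13 at 7 d, with an adjusted p of 0.01 after rounding that did not pass.

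gene16374 (LOC107424539) is an ERF matched to ERF010 in Swiss-Prot. It was at 15.4, 19.2 and 22.5 FPKM at 0 d, 4.84, 5.02 and 3.04 after 1 d, 6.18, 4.02 and 1.97 after 3 d, 3.09, 3.24 and 4.44 after 5 d, and 4.09, 7.91 and 6.11 after 7 d. No heated library came above 7.91 FPKM and no 0 d library below 15.4 FPKM.

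gene16374 fell by 1.93, 2.06, 2.12 and 1.53 log2 units after 1, 3, 5 and 7 d, with an SE of 0.31 (limma adjusted p of 0.000494, 0.00022, 0.000133 and 0.00238). Its mean at 0 d, 19.1 ± 3.56 FPKM, was 4.43, 4.69, 5.31 and 3.16 times that at 1, 3, 5 and 7 d. Without replicate a at 7 d the difference was -1.32 (adjusted p = 0.00982) and still passed, as the only member that had fallen in that fit. Without replicate c at 0 d the 7 d difference of gene16374 was -1.41 (adjusted p = 0.0127), and without replicate b at 0 d it was -1.52 with an adjusted p of 0.01 after rounding, above the threshold before it.

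gene7682 (LOC107415044) is annotated as RAP2-11-like, after a factor that in Arabidopsis takes part in the response to low potassium. It was below 1 FPKM in every library and had no limma test. It was at 0.545, 0.534 and 0.910 FPKM at 0 d, 0.0328, 0.0335 and 0.0499 after 1 d, 0.0167, 0.0466 and 0.0568 after 3 d, 0.0210, 0.0440 and 0.157 after 5 d, and 0.0136, 0.120 and 0.0375 after 7 d. The highest heated library, 0.157 FPKM, was below the lowest at 0 d, 0.534 FPKM.

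The mean of gene7682 at 0 d, 0.663 ± 0.214 FPKM (SD, n = 3), was 17.1, 16.6, 8.97 and 11.6 times that at 1, 3, 5 and 7 d, at levels where few fragments carry each value. An exact two-sided permutation test of 3 libraries against 3 gave p = 0.1 at each heated time point, which is the smallest p it can give. In a fit without the filter and with a pseudocount of 0.1, chosen after seeing the data, the log2 differences of gene7682 were -2.43, -2.42, -2.18 and -2.30 (limma adjusted p of 0.000247, 0.000171, 0.000267 and 0.000431). With a pseudocount of 1 they were -0.67, -0.67, -0.63 and -0.65.

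**Figure D3:**
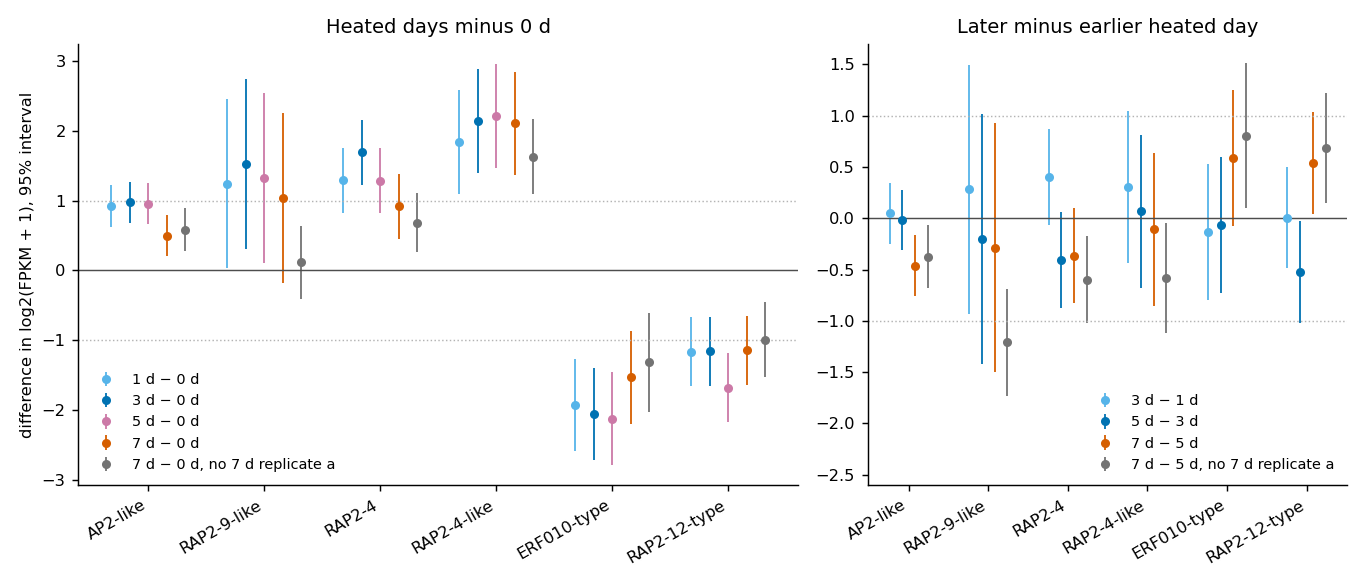
Differences in log2(FPKM + 1) for the 6 genes tested, with 95% intervals from limma, between each heated day and 0 d (left) and between successive heated days (right). Dotted lines mark a fold change of 2, and grey points leave out replicate a at 7 d, which moves the RAP2-9-like gene at 7 d to 0.12 (left) and -1.21 (right).

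Between successive heated days 0 of 6 members passed, against 0.221% of all genes at 3 d against 1 d, 0.181% at 5 d against 3 d and 0.683% at 7 d against 5 d. At an unadjusted limma p of 0.05 or less were 0 members at 3 d against 1 d, 1 at 5 d against 3 d (gene2565, -0.52 with a 95% interval of -1.02 to -0.03) and 2 at 7 d against 5 d. These 2 were gene23026, with -0.46 and an interval of -0.76 to -0.16, and gene2565, with 0.54 and an interval of 0.04 to 1.03. For gene28482 the interval at 7 d against 5 d spanned -1.50 to 0.93, past a 2-fold lower level.

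Without replicate a at 7 d, 1 of 6 members passed at 7 d against 5 d, against 4.87% of all genes. It was gene28482, at -1.21 ± 0.24 (SE, limma adjusted p = 0.00581). Without that library gene28482 entered the test only through libraries at 1, 3 and 5 d, so this p is no independent support. The library left out was also its highest, at 9.63 FPKM. In that fit the differences of gene28694 (-0.60), gene31593 (-0.59) and gene23026 (-0.37) were also below 0, and those of gene16374 (0.81) and gene2565 (0.69) above 0, with adjusted p of 0.0519 to 0.12. Each of these 6 differences pointed toward the level at 0 d. The members were chosen as changed from 0 d on libraries that include those at 5 d. That choice favours such a direction, which was not set against all genes, so it is a description. HSP83 was lower as well in replicates b and c at 7 d, at 34.0 and 31.0 FPKM, than at 5 d, at 109.8 to 127 FPKM, and its part in the result was not tested.

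The share of gene2565 in the summed level of the 7 genes was lower in every heated library than at 0 d. The 7 genes added up to 495 to 782 FPKM in the heated libraries and 630.1 to 653 FPKM at 0 d. gene2565 made up 23.4% to 48.1% of this sum in heat, against 75.4% to 79.4% at 0 d. It was the most abundant member in 8 of 15 libraries, those at 0 d and 1 d and replicates b and c at 7 d, and in the other 7 a gene of the RAP2-4 pair was above it.

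The RAP2-4 pair together was at 0.221, 0.242 and 0.271 of the level of gene2565 at 0 d. It was at 1.30, 1.85 and 1.66 times that level after 1 d, 1.69, 2.23 and 2.35 after 3 d, 2.15, 2.88 and 2.83 after 5 d, and 3.18, 1.03 and 1.08 after 7 d. Every heated library was above 1 and every 0 d library below it, and replicates b and c at 7 d were the lowest of the heated libraries. As the members were chosen on the libraries at 0 to 5 d, this separation and the lower share of gene2565 describe them and test nothing. In every library gene2565, gene28694 and gene31593 were at 40.6 FPKM or more and the other 4 members at 22.5 FPKM or less. The order of the lowest was not fixed, since gene28482 was below gene7682 in replicates b and c at 0 d.

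Over the 15 libraries the 4 genes with higher means in heat correlated with each other at Pearson r of 0.491 to 0.857 on log2(FPKM + 1), the 3 with lower means at 0.784 to 0.889, and genes of unlike direction at -0.905 to -0.640. These values share the step between 0 d and heat, by which the members were chosen. Within the 12 heated libraries alone the ranges were -0.136 to 0.824, -0.262 to 0.361 and -0.560 to 0.210. The 6 pairs of the first kind were at 0.358 to 0.745 over 11 heated libraries without replicate a at 7 d. In the same 11 libraries the other ranges were still of mixed sign, at -0.32 to 0.36 and -0.723 to 0.223. The libraries at a time point are replicates, so these are descriptions.

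The supplementary tables list genes that the study found differentially expressed, so names of heat-responsive genes were favoured. The genes of most similar pattern were sought among all genes tested. They are named where those tables pair an identifier with an annotation (1153 genes). For gene31593 these were gene2890, matched to a heat shock cognate 70 kDa protein (r = 0.980, rank 1 of 19924), and gene23128, multiprotein-bridging factor 1c, a coactivator known from heat stress in Arabidopsis (r = 0.974, rank 3). For gene28482 they were gene19985, matched to a small chloroplastic heat shock protein (r = 0.907, rank 5), and gene17985, GATA transcription factor 16-like (r = 0.901, rank 7).

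For gene28694 they were gene880, a NAC domain protein (r = 0.964, rank 1), and gene23149, a tonoplast intrinsic protein (r = 0.954, rank 3), and for gene23026 gene29076, of unknown function (r = 0.962, rank 1), and gene21365, a sarcosine oxidase family protein (r = 0.961, rank 2). For gene16374 they were gene10061, a mitochondrial ADP,ATP carrier, and gene1168, a putative DNA binding factor (both r = 0.949, ranks 15 and 16). For gene2565 they were gene12045, High mobility group B protein 2 (r = 0.946, rank 8), and gene12102, an aspartic protease (r = 0.929, rank 31). For gene7682 they were gene12338, a fatty acid/sphingolipid desaturase (r = 0.971, rank 3 of 19925), and gene10872, uncharacterized (r = 0.958, rank 6). All r are over 15 libraries that share 5 time points, and include the step between 0 d and heat by which the members were chosen. Those of gene31593 and gene28482 also include replicate a at 7 d, the highest library of both genes.

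Another 21 AP2/ERF genes are annotated in the supplementary tables, 8 of them listed there for ‘HS’ and 13 only for the heat-resistant cultivar ‘HR’, and 19 had enough FPKM to be tested. Of these 19, 2 rose and 0 fell at 1 d, 6 rose and 1 fell at 3 d, 2 rose and 2 fell at 5 d, and 6 rose and 1 fell at 7 d. These were 5 and 1 at 7 d without replicate a of that day. Of all genes tested 4.49%, 7.53%, 9.28% and 4.14% rose after 1, 3, 5 and 7 d and 5.68%, 6.39%, 8.79% and 4.88% fell. Both counts at 5 d, and the counts of fallen genes at 1, 3 and 7 d, were near these shares. Of the 19 genes, 2 reached 1 FPKM only in heated libraries. Their median log2 difference was 0.38, 0.44, 0.28 and 0.40 at 1, 3, 5 and 7 d, against 0.04, 0.12, 0.10 and 0.04 over all genes tested. The genes listed for ‘HS’ had been chosen on these libraries. The p-values given below for single genes of this list, such as gene23698, gene9866 and gene29882, may therefore not be independent support. The calls of these genes over the 4 comparisons numbered 20, and 13 without replicate c at 0 d.

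The risen genes were led by ERF4-type genes. ERF4 of Arabidopsis is an ethylene-responsive factor with an EAR motif that represses its targets. gene23698 (LOC107432496) was the only one of the 19 past both thresholds at all 4 heated time points. It was at 57.8, 29.1 and 25.5 FPKM after 1 d, 57.2, 61.9 and 60.2 after 3 d, 36.6, 29.9 and 31.7 after 5 d and 346, 111 and 101 after 7 d, against 7.30, 12.7 and 12.2 at 0 d. It rose by 1.65, 2.41, 1.55 and 3.79 (limma adjusted p of 0.00771, 0.000545, 0.00739 and 4.94e-05), and by 3.23 at 7 d without replicate a.

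gene9866 (LOC107417413), also of the ERF4 type, was at 103, 20.3 and 19.3 FPKM after 7 d, against 2.14, 2.80 and 2.74 FPKM at 0 d, a difference of 3.33 (limma adjusted p = 0.0015) and of 2.55 without replicate a at 7 d (adjusted p = 0.00306). It also rose at 3 d, by 2.80 (adjusted p = 0.00308). The other genes that rose at 7 d were gene1674 and gene23700 of the ERF4 type, gene2360 (ERF7, another repressor) and gene21779 (ERF6). They rose by 2.24, 2.41, 1.29 and 1.48, in that order. When replicate a at 7 d was left out, gene1674 (1.93), gene2360 (1.14) and gene21779 (1.47) passed and gene23700 did not, at 1.81 with an adjusted p of 0.0347. In gene9866, gene23698, gene1674, gene23700 and gene2360, as in gene31593 and gene28482, replicate a at 7 d was the highest library of all 15. In gene21779 it was not. It was also the highest in gene21565, gene1671 and gene12809, which did not pass at 7 d.

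At 7 d 1 of the 19 genes of the list fell, near the share of 4.88% of all genes tested. This was gene29882 (LOC107406487), matched to DREB2A, which in Arabidopsis activates genes of drought and heat. It was at 2.85, 2.02 and 1.82 FPKM after 7 d, against 6.80, 5.67 and 8.69 FPKM at 0 d, and all 12 heated libraries lay below those of 0 d. It fell by 1.27, 1.41 and 1.31 at 3, 5 and 7 d (limma adjusted p of 0.00149, 0.00058 and 0.00178), and by 1.45 at 7 d without replicate a (adjusted p = 0.00235). Another gene, gene29232, named here for the same match, was higher than at 0 d, by 0.38, 0.87, 0.70 and 0.53 at 1, 3, 5 and 7 d. None of these differences of gene29232 passed (limma adjusted p of 0.47, 0.0824, 0.144 and 0.301).

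**Figure D4:**
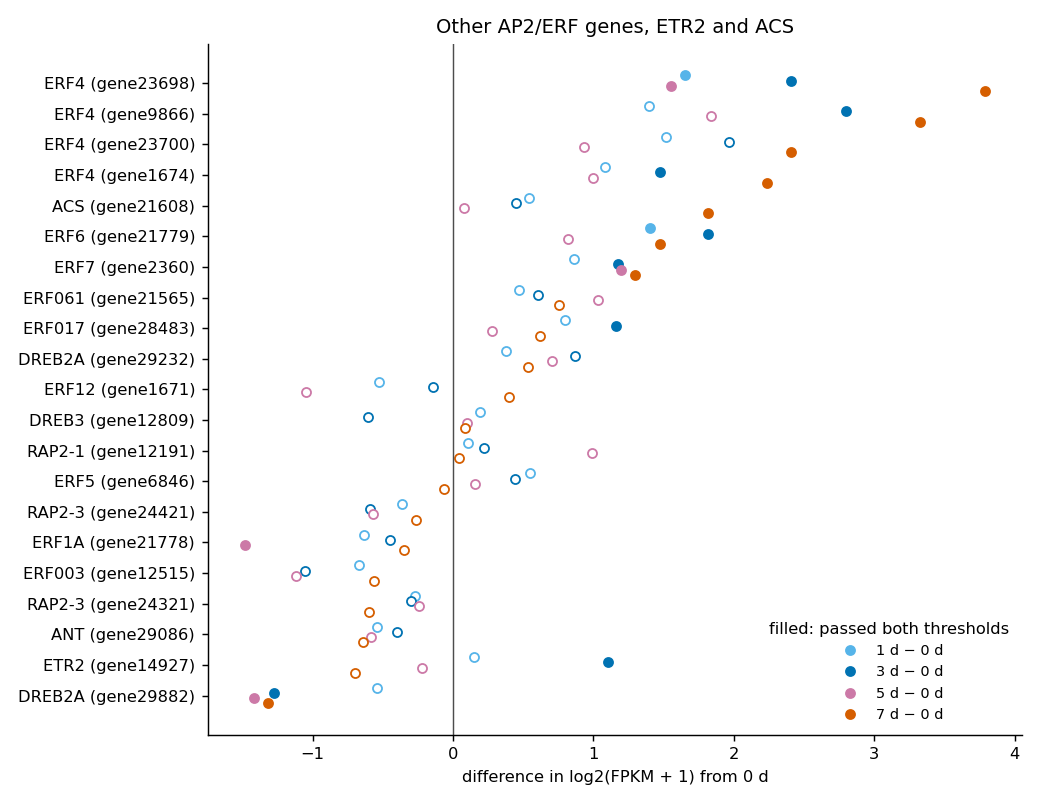
Differences in log2(FPKM + 1) from 0 d (horizontal axis) for the 19 other AP2/ERF genes tested, the ethylene receptor gene ETR2 and the ACC synthase gene ACS, at 1, 3, 5 and 7 d, ordered by the value at 7 d. Filled points passed both thresholds. The ERF4-type genes lie at the top, up to 3.79. gene29882, matched to DREB2A, lies at the bottom, while gene29232, with the same match, is at 0.53 at 7 d.

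Ethylene synthesis and perception were represented by 1 gene each. gene21608 (LOC107430205) encodes an ACC synthase, the enzyme of the rate-limiting step of ethylene synthesis. It was at 1.14, 4.55 and 3.34 FPKM after 7 d, against 0.0798, 0.0967 and 0 FPKM at 0 d, and no library at 1, 3 or 5 d was above 0.755 FPKM. Its differences were 1.81 at 7 d against 0 d and 1.73 at 7 d against 5 d (limma adjusted p of 0.000558 and 0.00777). As it reached 1 FPKM in the 3 libraries at 7 d alone, it was tested only because it was high there, and these p-values are no independent support. Here replicate a at 7 d was the lowest of its day, and without it the gene had too few values for a test.

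gene14927 (LOC107422981), the ethylene receptor gene ETR2, was at 17.3, 18.4 and 16.9 FPKM after 3 d, against 8.90, 6.71 and 7.35 FPKM at 0 d. It rose by 1.10 at 3 d (limma adjusted p = 0.00121). At 1 d and 5 d the differences were 0.15 and -0.22 and did not pass (adjusted p of 0.617 and 0.416). ETR2 was taken from supplementary tables of differentially expressed genes, so its p at 3 d may not be independent support. At 7 d it was at 3.56, 5.16 and 4.31 FPKM, below all of 0 d, with a difference of -0.70 that did not pass (adjusted p = 0.0227), or -0.59 without replicate a at 7 d (adjusted p = 0.0725).

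The number of members past the thresholds depended on which replicates were in the fit. When replicate b was left out at every time point, 0 of 6 members passed at 1, 3, 5 or 7 d, against 0.313%, 1.99%, 5.06% and 0.271% of all genes. When replicate c was left out, 0, 0, 1 and 0 members passed, against 0.476%, 2.17%, 5.68% and 0.125% of all genes. When replicate a was left out, 5, 5, 5 and 2 members passed, against 14.5%, 20.4%, 23.3% and 12.2% of all genes. With all libraries these shares were 10.2%, 13.9%, 18.1% and 9.01%. No member changed its direction from 0 d in any of these fits, and for those that pass with all libraries the limma adjusted p without b or c were 0.012 to 0.085, apart from gene16374 at 5 d without c (0.00599).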

How the data were processed

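RNA-seq was done on leaves of ‘HS’ at 0, 1, 3, 5 and 7 d of heat stress, with 3 libraries each. The authors aligned reads with Bowtie 2 and TopHat 2, built transcripts with Cufflinks and expressed levels as FPKM by a tool that is not stated, and the submitters' processing notes name Trimmomatic 0.36 and FastQC; the genome build is not given in the sources used here. The deposited table holds FPKM per gene without counts, so no counting intervals could be given, and a fold change on log2(FPKM + 1) understates the change of low genes. Labels and methods differ in kit and instrument. The 19925 genes that reached 1 FPKM in 3 or more libraries were tested with limma 3.58.1 (R 4.3.3, intensity trend) on log2(FPKM + 1) in 1 fit of all 15 libraries, with Benjamini-Hochberg adjustment; genes passed with an adjusted p no higher than 0.01 and a difference of at least 2-fold. The limma step was run on simulated data with independent noise in every library, which lack the likeness of replicates b and c and so do not cover it. Other values and figures were made with Python 3.11.15, numpy 2.4.6, pandas 2.3.3, scipy 1.17.1 and matplotlib 3.10.9. All comparisons with 0 d share its 3 libraries. The members and lists were chosen with earlier results of these data known. Named were the members, other AP2/ERF genes past the thresholds at all 4 heated times or with the 2 largest rises or falls at 7 d, the genes of ethylene synthesis and perception, the 2 genes most like each member, and the marker genes. Gene names came from the supplementary tables and the RefSeq annotation of Dongzao, which matched all 7 members and was used for names, biotypes and neighbours. Alternatives were another pseudocount, filter, scaling, set of libraries, spread and threshold, a block for the replicate letter, and leaving out libraries.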

Additional observations from a re-analysis of the deposited data

How the results depend on the processing

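No member changed the sign of its difference from 0 d under any alternative, among 1219 single-member values recomputed, while differences between heated days changed sign 39 times, in no case with either value past the thresholds. Leaving out 1 library or 1 letter gave 0 to 5 members past the thresholds at 1, 3 and 5 d (4 with all libraries), 0 to 4 at 7 d (3 with all libraries), 0 to 1 at 7 d against 5 d (0 with all libraries) and 0 to 27 calls of other AP2/ERF genes (20 with all libraries). With replicates b and c averaged as 1 sample, chosen after seeing the data, 0, 0, 1 and 0 members passed at 1, 3, 5 and 7 d, and there was 1 call of other AP2/ERF genes. In that fit 108, 494, 1246 and 29 genes passed in all, against 2027, 2775, 3601 and 1796. Of 30 same-letter correlations of deviations, 1 was over 0.1. They measure a shift shared by a letter across days, and cannot show that the letters carry no structure. Replicates b and c were more alike than either was to replicate a at every time point. With a replicate block 4, 4, 4 and 3 members and 20 other calls remained in count. The fit of the 6 libraries compared gave gene31593 an adjusted p of 0.0137 at 7 d, and quantile normalization brought gene28694 past both thresholds at 7 d (1.01). FPKM without counts limits the precision of low genes such as gene7682.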

Other observations

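In 3 other AP2/ERF genes, chosen after their values were seen, single libraries stood away from their replicates. RAP2-1 (gene12191) was at 31.2 FPKM in replicate c at 5 d and 19.9 FPKM in replicate a at 7 d, and at 1.30 to 7.79 FPKM in the other 13 libraries. ERF5 (gene6846), in Arabidopsis an activator, was at 46.9 FPKM in replicate a at 7 d and at 88.2 to 218 FPKM in the other 14. ERF1A (gene21778) was at 19.4 FPKM in replicate a and at 53.2 and 49.2 FPKM in replicates b and c at 7 d, against 41.0 to 52.6 FPKM at 0 d.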
